A study of Mus musculus with 6 samples.

Results

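The genes Col1a1, Col1a2, Col3a1, Dcn, Lum and Mgp encode collagens and matrix proteins that fibroblasts secrete, and their transcripts were taken from a table of single mRNA molecules of 6 mouse brain cells by matching the gene symbol. Of these 6 genes, 5 had transcripts and Mgp had none, among 6357 genes named in the table. The 5 genes held 212 of its 36659 transcripts, read by 684 of 73594 reads, and all 212 came from 2 cells, VLMC-1 (64 transcripts) and VLMC-2 (148 transcripts). VLMCs are vascular and leptomeningeal cells, as the study calls them; the sample labels name the same cells oligodendrocyte progenitors. The other 4 cells were 2 immature (Oligo1) and 2 mature myelinating (Oligo5) oligodendrocytes, as the study names them. The labels describe all 6 cells alike as brain cells of CD-1 mice at an embryonic stage, with no treatment. The study's text names hippocampus and cortex as their source and gives no age, so the labelled stage could not be checked there. Each cell is 1 library, and nothing in the sources used here says whether the cells of a type came from the same animal.

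Fibrillar collagens are made as long procollagen chains that wind into triple helices, are trimmed outside the cell and pack into fibrils, which give connective tissue its strength. Col1a1 and Col1a2 encode the alpha chains of type I collagen, and Col3a1 encodes the chain of type III collagen. Decorin (Dcn) and lumican (Lum) are small leucine-rich proteoglycans that bind collagen fibrils and control how these assemble, and matrix Gla protein (Mgp) inhibits calcification. In the brain, genes of this kind mark the fibroblast-like cells of the leptomeninges and of the vessel sheaths.

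Long reads gave each cDNA molecule its start, its splice junctions and its end. A unique molecular identifier (UMI) of 6 bases, added to the cDNA before amplification, allowed reads of the same molecule to be merged. A transcript below is such a merged molecule, and its start is the 5′ end of the cDNA. The study found these ends often truncated in endogenous genes. For its conservative isoforms it kept only transcripts with the annotated first exon, whereas all transcripts are described here. Per cell there were 2338 to 11483 transcripts, with the fewest in VLMC-1 and 4689 in VLMC-2, and 45.2% to 76.7% of the transcripts of a cell rested on 1 read. Because oligodendrocytes were sampled to at least 5895 transcripts, a gene without a transcript could make up to 0.0261% to 0.0509% of their transcripts (3 transcripts of the total), whereas the limit was 0.128% in VLMC-1 and 0.0640% in VLMC-2. Markers of other cell types were checked in the VLMCs by lists of 10 genes each. Of a VLMC list (without the genes described here) 5 genes were detected in VLMC-1 and 7 in VLMC-2, with 40 and 95 transcripts. Oligodendrocyte, neuron and macrophage lists were at 0 in both cells, and of the progenitor list only Pdgfra was detected, a gene that VLMCs also express. Vtn of the mural list (11 and 35 transcripts), Itm2a of the endothelial list (1 and 14) and Slc1a3 (1 and 21), Gja1 (4 and 0) and Slc4a4 (0 and 2) of the astrocyte list were present, with the defining markers Rgs5, Cldn5, Aqp4 and Gfap at 0; their part in the results below was not tested.

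The sites at which the transcripts ended are shown first, because the results on end sites refer back to them. The following runs are the last 30 bases of the mRNA before an end that had the poly-A signal AATAAA, which is set in capitals, in the sense strand, 5′ to 3′, on GRCm38 (mm10), taken from GENCODE M21 transcripts.
Col1a2 distal end, chr6:4541501-4541530, plus strand: ataaAATAAAgcatttttggttttccaaaa
Col1a2 middle end, chr6:4540979-4541008, plus strand: ataaAATAAAaagaaacccatgaacattcg
Col3a1 end, chr1:45348988-45349017, plus strand: tataataAATAAAcgtcaacacttttatga
Lum end, chr10:97572673-97572702, plus strand: gttgatagcaaAATAAAacaatgaagctgg
Dcn distal end, chr10:97518114-97518143, plus strand, up to the annotated end, which lies 7 bases before the most used one: tcactgtcatattgaaaaaAATAAAatttt

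Ends without the signal are shown with the 10 bases up to the most used position of the end in lower case. The next 20 bases of the mRNA are in capitals. The joined ends reach 97517732 for Dcn and 4540729 for Col1a2, so some transcripts include part of the capitals.
Col1a2 proximal end, chr6:4540719-4540748, plus strand: tttcctccttTAAAAAAAAAAACAAAAAAC
Dcn proximal end, chr10:97517706-97517735, plus strand: atatcattgcTAAAAAGAAAAAATACTAAA
Col1a1 end, chr11:94951837-94951866, plus strand: tcaaccttacCAAAAAAGAAAAAAAAAAAA
Of all transcript ends of the VLMCs that lay in an annotated mRNA, 70.1% (4143 of 5909) had AATAAA or ATTAAA in the last 30 bases, read in the sense strand only. Over all ends of the 6 cells that lay 100 bases or more before the annotated end, the next 20 bases held a median of 7 A, and 23.9% of them held 15 or more.

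Transcripts of the 6 genes made up 2.74% of VLMC-1 (64 of 2338, 95% exact Clopper-Pearson interval 2.11% to 3.48%) and 3.16% of VLMC-2 (148 of 4689, 2.67% to 3.70%). In both VLMCs together this was 3.02%, against 0 of 29632 transcripts in the 4 oligodendrocytes, which allows a share of up to 0.0101%. These intervals and limits cover counting error only. With 1 or 2 cells of a type, no test between cell types was made.

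Each molecule counts once, so the shares were not scaled by mRNA length. They can still depend on length, because the authors removed short molecules and enriched longer ones before the long-read run. Among the collagens, Col1a2 had 11 transcripts in VLMC-1 (0.470% of the cell, 0.235% to 0.840%) and 47 in VLMC-2 (1.00%, 0.737% to 1.33%). The share in VLMC-2 was 2.13 times that in VLMC-1 (95% interval of the odds ratio 1.09 to 4.59). Col3a1 had 7 transcripts in VLMC-1 (0.299%, 0.120% to 0.616%) and 8 in VLMC-2 (0.171%, 0.0737% to 0.336%). The share intervals of the 2 cells overlapped for Col1a2 and for Col3a1. Col1a1, the partner chain of Col1a2, had 3 transcripts in VLMC-2 (0.0640%, 0.0132% to 0.187%), each from 1 read. It had 0 in VLMC-1, which allows a share of up to 0.128%.

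Decorin had 35 transcripts in VLMC-1 (1.50%, 1.04% to 2.08%) and 45 in VLMC-2 (0.960%, 0.701% to 1.28%). Lumican had 11 transcripts in VLMC-1 (0.470%, 0.235% to 0.840%) and 45 in VLMC-2 (0.960%, 0.701% to 1.28%), 2.04 times the share (odds ratio 1.04 to 4.40). The share intervals of the 2 cells overlapped for Dcn and for Lum. Dcn thus had more transcripts than Lum in VLMC-1 and as many in VLMC-2, where the order depended on the run. Among VLMC-2 transcripts with a read in the short run, Lum made 0.607% and Dcn 1.01%, and among those with a read in the long run Lum made 1.60% and Dcn 1.15%. Mgp had no transcript in any of the 6 cells, and none of the 356 transcripts assigned to several genes named a member.

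**Figure D1:**
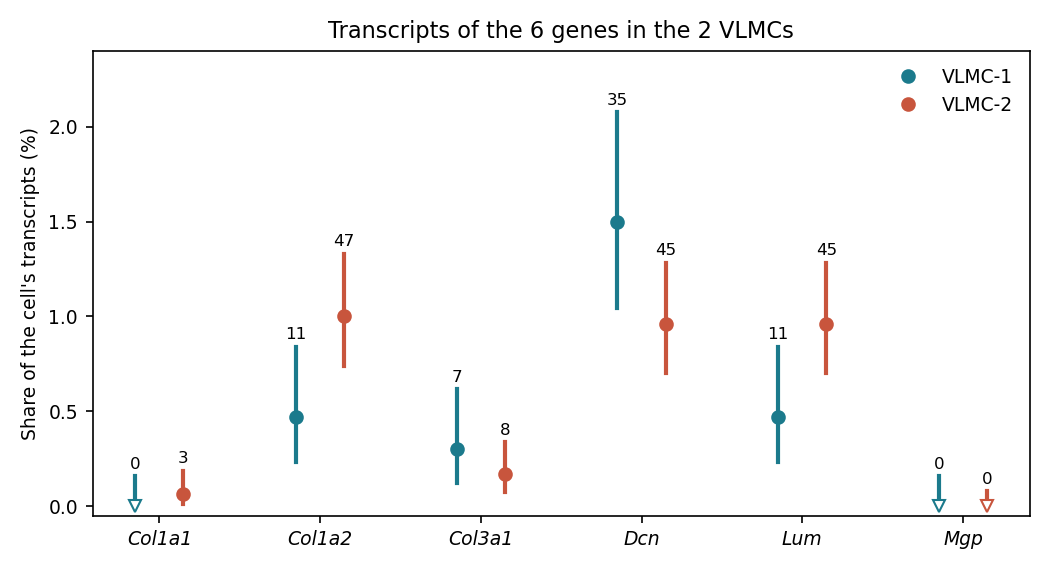
Share of each VLMC's transcripts (%) held by the 6 genes; points are the shares of VLMC-1 and VLMC-2, lines the 95% exact intervals and numbers the transcripts, with open triangles for 0. Dcn is highest in VLMC-1 (1.50%), Col1a2, Dcn and Lum lie at 0.960% to 1.00% in VLMC-2, and Mgp has no transcript.

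The pair of cells was compared gene by gene with Fisher's exact test, two-sided, over all 266 genes with 5 or more transcripts in the pair, with Benjamini-Hochberg adjustment. The test compares these 2 libraries and treats molecules as independent. It called 39 genes (14.7% of those tested), 31 with the higher share in VLMC-1 (11.7%) and 8 in VLMC-2 (3.01%), and none of the 4 members that entered it. The 2 directions were not equally easy to call, because VLMC-1 had fewer transcripts (2338 against 4689). Counts of 5 in VLMC-1 and 0 in VLMC-2 were called (Postn, adjusted p = 0.0309, exact test). Counts of 0 and 10 were not (Ddx3x, adjusted p = 0.169, exact test). The 31 and 8 are thus not counts on equal terms, and how much of the split comes with depth was not tested. Col1a2 had p = 0.0242 and adjusted p = 0.134, Lum p = 0.0321 and adjusted p = 0.164, Dcn p = 0.0555 and adjusted p = 0.217 and Col3a1 p = 0.281 and adjusted p = 0.466, all by this exact test. These calls depended on the totals. With TMM-scaled totals, which moved the median log2 difference of all genes from 0.46 to 1.12, Col1a2 (adjusted p = 0.00300) and Lum (adjusted p = 0.00482) passed the threshold of the exact test as higher in VLMC-2, the log2 difference of Dcn went from -0.65 to 0.01, and the split of called genes went from 31 and 8 to 7 and 20. Other settings made the differences smaller: the log2 difference of Col1a2 went from 1.04 to 0.53 among transcripts read 2 or more times (adjusted p = 0.703, exact test) and to 0.40 with near-identical UMIs merged (adjusted p = 0.895), and that of Lum from 0.98 to 0.56 in the short run (adjusted p = 0.717).

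Reads per transcript were few. The median was 3 in VLMC-1 and 2 in VLMC-2 for Col1a2, 2 and 1 for Dcn, 1 and 2 for Lum, and the most-read Dcn transcript had 15 reads. Starts and ends were joined into sites in a chain, each position to the next within 5 bp, so a site can be wider than 5 bp. Transcripts of the same gene and cell that shared both the start site and the end site were frequent for the proteoglycans. They were 26 of 35 Dcn transcripts in VLMC-1, 32 of 45 in VLMC-2 and 38 of 45 Lum transcripts in VLMC-2. For Col1a2 they were fewer, with 20 of 47 in VLMC-2. Merging UMIs that differed by 1 base or by a shift of 1 base, only where starts lay within 5 bp, left 28 and 32 transcripts of Dcn, 9 and 31 of Lum, 10 and 40 of Col1a2 and 5 and 8 of Col3a1 in VLMC-1 and VLMC-2. Merging such UMIs wherever they started left 20 and 27, 6 and 26, 10 and 27 and 5 and 8.

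Col1a2 lies on chromosome 6 (4504814 to 4541544, plus strand), with 52 exons and an mRNA of 5348 bases in the RefSeq-linked model, 4119 of them coding. Its transcripts covered the 3′ part of the mRNA. The median covered share was 11.0% in VLMC-1 (range 5.98% to 39.8%) and 16.8% in VLMC-2 (1.46% to 67.4%). Of 58 transcripts, 45 held the stop codon, 15 lay within exon 52 alone and none held the complete coding sequence, which allows up to 6.16% (exact interval). The most frequent place to start, after exon 52, was exon 40, with 2 transcripts in VLMC-1 and 9 in VLMC-2. One transcript of VLMC-2 reached exon 1, read 5 times in the short-read run, starting 204 bases after the annotated start and ending 30768 bases before the annotated end inside the gene.

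Col3a1, on chromosome 1 (45311538 to 45349706, plus strand, 51 exons, mRNA of 5564 bases), was covered by a median of 19.5% in VLMC-1 and 11.1% in VLMC-2. The longest transcript, in VLMC-2, ran from exon 22 into exon 51, covered 3067 bases or 55.1% and ended 688 bases before the annotated end. In VLMC-1 none began before exon 41, and 4 of 7 began in exon 48. No Col3a1 transcript reached exon 1. The 3 Col1a1 transcripts (chromosome 11, 94936224 to 94953042, plus strand, 51 exons) lay within exon 51, aligned over 182, 214 and 222 bases, and covered at most 3.74% of an mRNA of 5930 bases. Over the collagens together, 1 of 76 transcripts reached a first exon (1.32%, 0.0333% to 7.11%), whereas 97 of 136 transcripts of Dcn and Lum did so (71.3%, 62.9% to 78.7%); over all genes with a model the share was 37.6% in VLMC-1 and 47.6% in VLMC-2. The mRNAs differ in length, and mRNA length and gene cannot be told apart in this comparison.

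**Figure D2:**
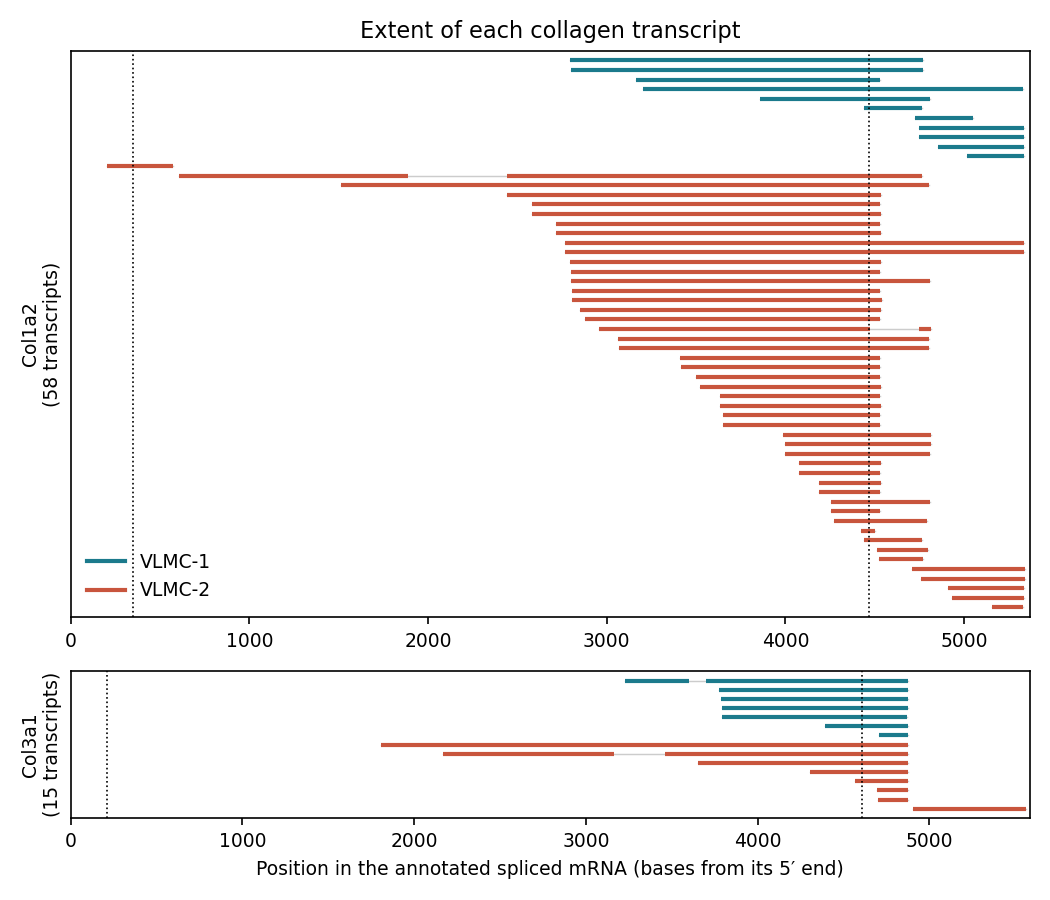
Each line is 1 transcript of Col1a2 (58) or Col3a1 (15), placed along the annotated spliced mRNA (x axis, bases from its 5′ end) and coloured by cell; dotted lines bound the coding sequence and thin grey lines are gaps. All but 3 Col1a2 transcripts begin in exon 35 or later, and 14 of 15 Col3a1 transcripts stop at 1 place.

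How far a collagen transcript reached differed with the sequencing run. The cDNA was read in a short-read and a long-read run (P4/C2 and P6/C4 chemistry in the labels). Per the study's methods, the library was purified once more before the long-read run to enrich longer fragments, and was loaded in another way. Longer molecules in that run are thus part of the design, and selection, loading and chemistry cannot be told apart. Col1a2 transcripts read only in the short run covered a median of 8.94% of the mRNA (n = 27), those read in both runs 29.6% (n = 17) and those read only in the long run 36.6% (n = 14). For Col3a1 the medians were 10.2% (n = 11), 20.7% (n = 2) and 49.3% (n = 2). For Dcn, with an mRNA of 1758 bases, they were 45.6% (n = 29), 74.3% (n = 31) and 81.6% (n = 20), and for Lum 37.1% (n = 9), 72.7% (n = 19) and 72.3% (n = 28). Runs were not replicated, so these are descriptions of the molecules read.

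**Figure D3:**
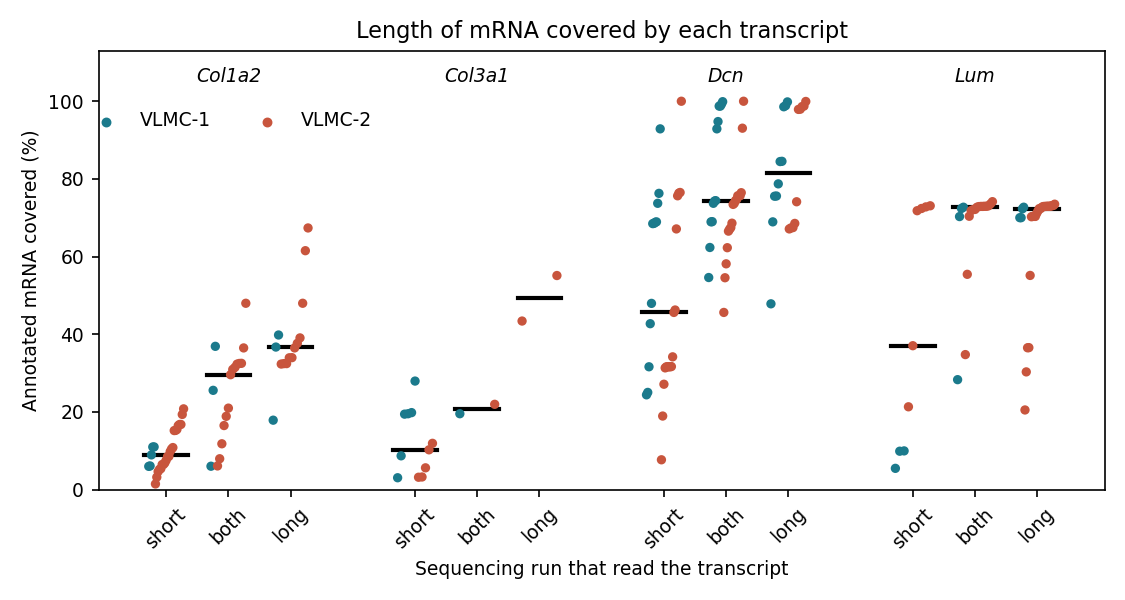
Share of the annotated mRNA (%) covered by each transcript, by gene and by the run in which it was read; points are transcripts coloured by cell and black bars are medians. For Col1a2 the median goes from 8.94% in the short run only to 36.6% in the long run only, and for Lum it is 72.7% in both runs and 72.3% in the long run only.

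In Col1a2, transcripts ended at 10 sites (ends within 5 bp joined). The most used was the proximal end 66 bases after the stop codon (4540728), which is followed by 17 A in the next 20 bases and has no AATAAA or ATTAAA in the 30 bases before it. It held 1 of 11 transcripts in VLMC-1 (9.09%, 0.230% to 41.3%) and 23 of 47 in VLMC-2 (48.9%, 34.1% to 63.9%). The distal end, 14 bases before the annotated end and with the signal 20 bases before it, held 5 of 11 in VLMC-1 (45.5%, 16.7% to 76.6%) and 7 of 47 in VLMC-2 (14.9%, 6.20% to 28.3%). The difference at the proximal end did not pass the test across genes (p = 0.0186 and adjusted p = 0.446 by Fisher's exact test with Benjamini-Hochberg adjustment), and that at the distal end was not tested.

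Between these ends lay an end at 4540962, again followed by many A (15 of 20) and without the signal, with 3 transcripts in each cell, and ends at 4540990 to 4541010, with AATAAA before them, with 1 in VLMC-1 and 11 in VLMC-2. No annotated transcript of the gene ended at any of these inner sites. Of the 24 transcripts that ended at the proximal site none began in the last exon, whereas 9 of the 12 at the distal end did. The last exon begins at 4540516, and most of its 1029 bases lie past the proximal end at 4540728. A start there cannot go with the proximal end, so this contrast is in part set by position. In all, 24 of 58 transcripts ended where AATAAA lay in the last 30 bases (6 of 11 in VLMC-1 and 18 of 47 in VLMC-2).

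For Col3a1, 14 of 15 transcripts ended at 1 site, 270 bases after the stop codon and 689 bases before the annotated end, with the signal 17 bases before it. All 7 transcripts of VLMC-1 and 7 of 8 of VLMC-2 ended there. The remaining transcript, of 1 read, lay wholly downstream of this site and ended 1 base past the annotated end. The Col1a1 transcripts ended 227, 268 and 276 bases after the stop codon, 1147 to 1196 bases before the annotated end; the first of these ends is followed by 18 A in 20 bases and the other 2 have AATAAA before them.

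Across genes, the end-site test was run on 48 genes with 5 or more transcripts in each VLMC and called 0 (0% of those tested; 4 genes had an unadjusted p under 0.05, Col1a2 and Lum among them). Dcn had p = 0.261, Lum p = 0.0468 and Col3a1 p = 1 by the exact test, with adjusted p of 1, 0.539 and 1. Counting all ends 100 bases or more before the annotated end as proximal, Col1a2 had 6 of 11 in VLMC-1 and 40 of 47 in VLMC-2 (exact p = 0.0387, adjusted p = 0.711), in a test that called 0 of 45 genes (0% of those tested; 3 genes with an unadjusted p under 0.05). This form of the test was chosen after seeing the data.

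**Figure D4:**
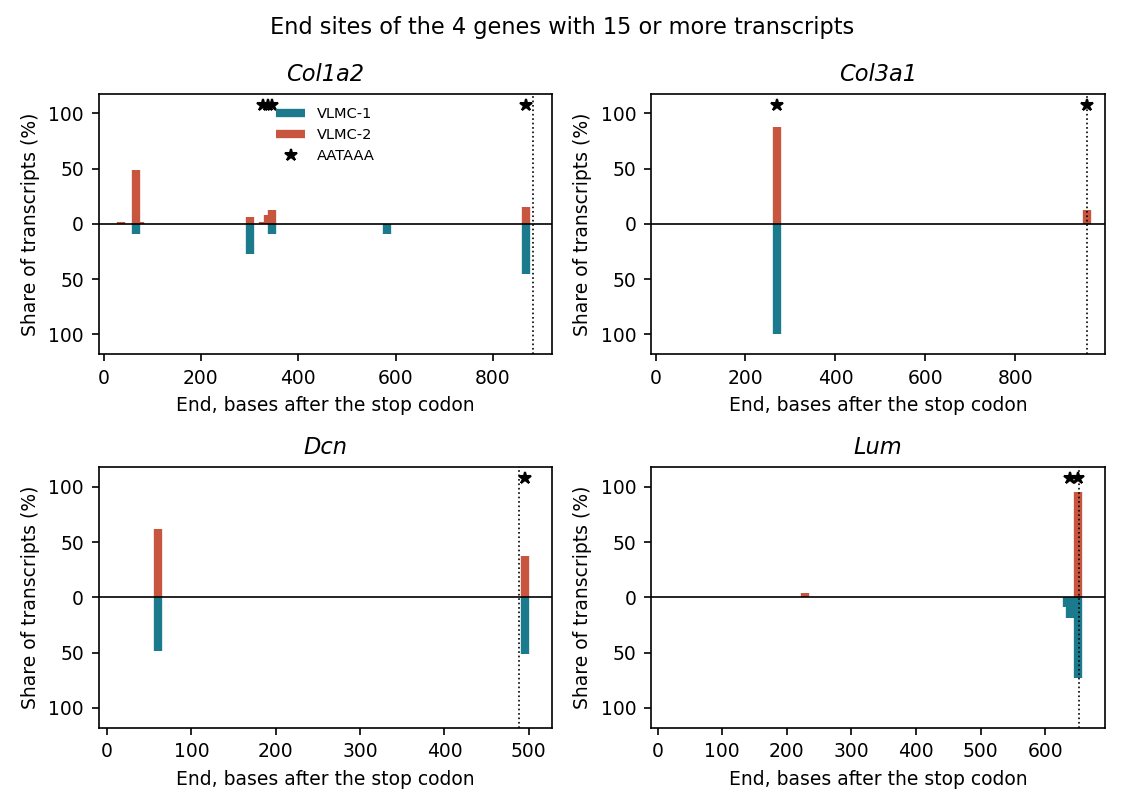
Share of each cell's transcripts (%) by the distance of their end from the stop codon (x axis, bases), with VLMC-2 drawn upward and VLMC-1 downward from 0; stars mark ends with AATAAA in the last 30 bases and dotted lines the annotated end. Col3a1 ends almost wholly at 270 bases, Lum at 651, Dcn is split between 60 and 495, and Col1a2 is spread over 9 places after the stop codon, with 48.9% of VLMC-2 at 66.

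Decorin (chromosome 10, 97479609 to 97518143, plus strand) has 8 exons in the model and 2 annotated first exons of 181 bases each, an upstream one (97479609 to 97479789) and a downstream one (97482367 to 97482547), both ahead of the exon with the start codon. All 24 transcripts of VLMC-1 and all 28 of VLMC-2 that reached a first exon had the upstream one, each spliced from its annotated donor within 1 bp. The downstream one had 0 of 52, which allows a share of up to 5.77%, and with 1 exon in use a Fisher's exact test between the cells has nothing to compare. In single cells the limit was 12.5% in VLMC-1 and 10.7% in VLMC-2. All 52 transcripts also held the complete coding sequence.

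Within the upstream exon the starts were spread. They lay 2 to 126 bases after the annotated start in VLMC-1 (median 30) and from 59 bases before it to 161 after it in VLMC-2 (median 24). In VLMC-2, 7 of 28 starts (25%, 10.7% to 44.9%) lay upstream of the annotated start, and in VLMC-1 0 of 24 (0% to 14.2%). The intervals overlapped and the difference was not tested. Some of the 7 lay at 97479606, just before the annotated start, in a joined site that held 5 transcripts of each cell. The site near base 125 after the annotated start held 9 transcripts of VLMC-1 and 3 of VLMC-2, and the site at base 151 held 0 and 6. The remaining 28 Dcn transcripts began inside the gene, 11 of them in the last exon.

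Dcn transcripts ended at 2 sites. The proximal one lay 60 bases after the stop codon, had no AATAAA or ATTAAA before it and 15 A in the 20 bases after it, and held 17 of 35 transcripts in VLMC-1 (48.6%, 31.4% to 66.0%) and 28 of 45 in VLMC-2 (62.2%, 46.5% to 76.2%). An annotated retained-intron transcript of the gene ends 1 base from it. The distal end had the signal and lay 7 bases past the annotated one, with 18 of 35 and 17 of 45 transcripts. Both ends thus occurred in both cells, at shares whose intervals overlapped. Among transcripts that held the first exon, 34 of 52 ended at the proximal site (65.4%, 50.9% to 78%), and among the others 11 of 28 (39.3%, 21.5% to 59.4%). The others include 11 that began in the last exon, of which 1 ended at the proximal site and 10 at the distal one. So late a start leaves little room for the proximal end, so these 2 shares do not show a link between first exon and end. Of the transcripts with the complete coding sequence, 34 thus stopped near 60 bases and 18 near 495 bases after the stop codon; whether the cDNA of the former was primed at the A-rich stretch was not tested.

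Lumican (chromosome 10, 97565128 to 97572703, plus strand, 3 exons, mRNA of 2448 bases) held the complete coding sequence in 7 of 11 transcripts in VLMC-1 (63.6%, 30.8% to 89.1%) and 38 of 45 in VLMC-2 (84.4%, 70.5% to 93.5%). None of these 45 began near the annotated start. They began 631 to 727 bases after it, with medians of 676 in VLMC-1 and 663.5 in VLMC-2, and kept 31 to 127 bases of a first exon annotated with 758, so that they covered at most 74.1% of the annotated mRNA. No other annotated start of the gene lay nearer. The most used start site, joined from positions 97565785 to 97565810, held 4 of 11 transcripts in VLMC-1 and 26 of 45 in VLMC-2. At the 3′ end 8 of 11 and 43 of 45 transcripts stopped within 2 bases of the annotated end, 3 of VLMC-1 stopped 13 or 19 bases before it, and 2 of VLMC-2 stopped 424 bases before it.

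**Figure D5:**
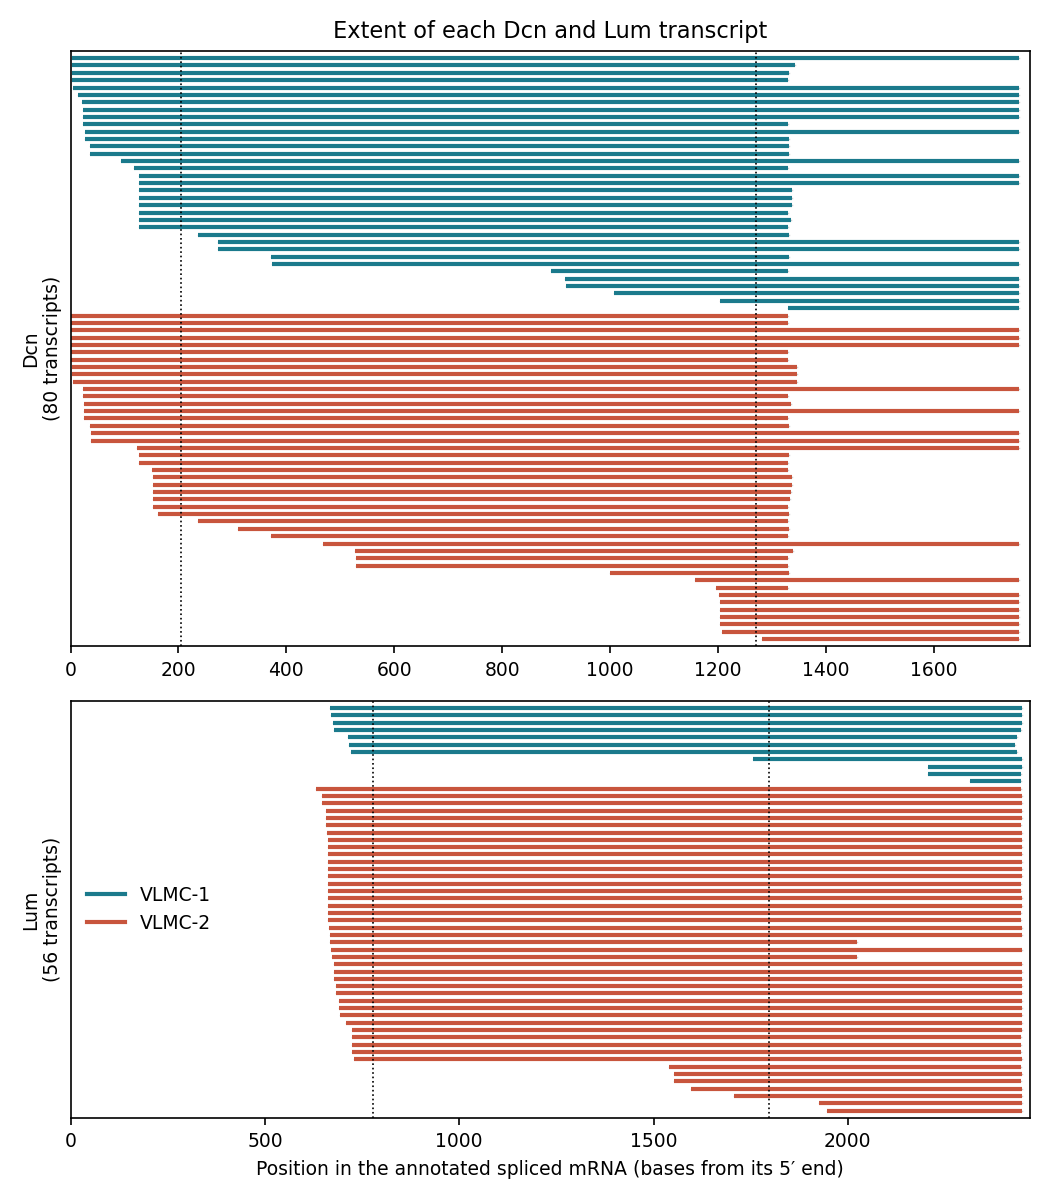
Each line is 1 transcript of Dcn (80) or Lum (56) along the annotated spliced mRNA (x axis, bases from its 5′ end), coloured by cell, with dotted lines at the bounds of the coding sequence. Most Dcn lines start in exon 1 and stop at 1 of 2 places, and the 45 Lum lines that hold the coding sequence start 631 bases or more into the annotated mRNA.

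Splicing followed the annotation. Of 984 junctions in the transcripts of Col1a2, Col3a1, Dcn and Lum, 970 matched an annotated intron within 1 bp at both ends (98.6%, 97.6% to 99.2%), with 367 of 376 for Col1a2, 75 of 77 for Col3a1, 435 of 437 for Dcn and 93 of 94 for Lum. Of the other 14, 10 were 2 to 4 bp off. The remaining 4 left out longer pieces, all in collagens. A Col1a2 transcript of VLMC-2 (1 read) joined the inside of exon 26 to exon 35 and left out 558 bases of the mRNA, 36 of them in exon 26. Another, of 7 reads, left out 273 bases within exon 52, behind the stop codon. A Col3a1 transcript of VLMC-2 (5 reads) joined the inside of exon 41 to exon 45 and left out 296 bases, 80 of them in exon 41. The 296 bases are not a multiple of 3. One Col3a1 transcript of VLMC-1 (1 read) left out 96 bases across exons 46 and 47. None of these gaps began at an annotated exon end.

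The bases on either side of the gap within exon 52 of Col1a2 are shown because 7 bases, in capitals, stand at both borders; each run has 15 bases before and 15 after the border.
Col1a2 gap, left border, chr6:4540654-4540683, plus strand: ttcaaataagtgaacTCAACCTaaattaaa
Col1a2 gap, right border, chr6:4540927-4540956, plus strand: ctgttgtggacattgTCAACCTttgtaaga
At the other gaps 5 (Col1a2), 2 and 4 bases (Col3a1) were shared in this way. The base at which the gap begins can thus not be fixed to a single position.

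Starts inside the genes were compared with the UMI. In STRT libraries the UMI is a run of random bases in the oligonucleotide used for template switching. For each transcript the UMI was compared with the 6 mRNA bases 9 to 4 before its start. They were identical in 15 of 53 transcripts of Col1a2 (28.3%, 16.8% to 42.3%), 6 of 15 of Col3a1 (40%, 16.3% to 67.7%), 2 of 3 of Col1a1, 6 of 65 of Dcn (9.23%, 3.46% to 19.0%) and 0 of 56 of Lum (0% to 6.38%), among those with 12 or more annotated bases ahead of the start. Over all genes this was so for 16.4% of transcripts in VLMC-1, 15.0% in VLMC-2 and 6.42% in the oligodendrocytes. Of starts outside a first exon it was 21.1% in VLMC-1 and 23.9% in VLMC-2 over all genes, and 28 of 109 for the members (25.7%, 17.8% to 34.9%). Of starts in a first exon it was 5.45% in VLMC-1 and 3.27% in VLMC-2, and 1 of 83 for the members (1.20%, 0.0305% to 6.53%).

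The runs below show 15 mRNA bases before and 15 after 3 such starts, with the bases equal to the UMI in capitals.
Dcn, exon 2, chr10:97483514-97483543, plus strand: accgatGCCAGTgtcatcttcgagtggtgc
Col1a2, exon 40, chr6:4533757-4533786, plus strand: cctggcCCCCCTggtgctgctggaaaggaa
Col3a1, exon 48, chr1:45345890-45345919, plus strand: cctggtGCCCCTggtccctgctgtggtggt
The Dcn start above occurred with this UMI in both cells, in a transcript of 15 reads in VLMC-1 and of 7 in VLMC-2. Of 7 combinations of gene and UMI that the VLMCs shared among the members, 4 also shared the start and 3 of these had a UMI equal to the mRNA in both cells. Leaving out all transcripts with such a UMI, from every gene, gave the members 2.96% of the VLMCs' transcripts.

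Other matrix genes were read from 4 lists. Of 20 further collagens, 9 had transcripts in the VLMCs and 3 had 5 or more: Col4a1 (1 in VLMC-1 and 7 in VLMC-2) and Col4a2 (2 and 6), which form the type IV collagen of basement membranes, and Col18a1 (1 and 5). None of these 3 passed the test; the median log2 difference of these 3 was 0.87, beside 0.46 over all 266 genes tested. Together the 20 made 0.385% of VLMC-1 and 0.469% of VLMC-2, and in oligodendrocytes 2 of them had transcripts. Col4a5, a type IV collagen chain that was not in the list and is named after its values were seen, had 14 transcripts in VLMC-1 (0.599%) and 9 in VLMC-2 (0.192%), and was called higher in VLMC-1 by the exact test (log2 difference -1.61, adjusted p = 0.0486). Its adjusted p lay between 0.0399 and 0.438 over the alternatives, and the call was lost with no filter on low counts, with 2 or more reads, with UMIs merged in either way, in each run alone and with TMM-scaled totals. Of 11 further small leucine-rich proteoglycans, 4 had transcripts, and only Prelp reached 5 in the pair (5 and 4, a log2 difference of -1.29, not passing the test); all 11 were at 0 in the oligodendrocytes.

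Of 25 genes of collagen processing and secretion, 15 had transcripts in the VLMCs and 12 in an oligodendrocyte. Sparc, which encodes a collagen-binding matricellular protein, was the most frequent, with 10 transcripts in VLMC-1 (0.428%) and 49 in VLMC-2 (1.05%), a log2 difference of 1.23 with adjusted p = 0.0518 by Fisher's exact test. Its adjusted p lay between 0.00105 and 0.385 over the alternatives, and it passed the threshold with TMM-scaled totals, with a minimum of 10 transcripts and in the short run alone. P4hb, a subunit of prolyl 4-hydroxylase, had 1 and 8, Loxl1, which belongs to the lysyl oxidase family, 2 and 5, and Pcolce, which enhances procollagen C-proteinase, 1 and 4; none of the 4 genes tested passed, and their median log2 difference was 0.91. Of 31 matrix glycoproteins, 16 had transcripts in the VLMCs and 4 were tested. Periostin (Postn, 5 in VLMC-1 and 0 in VLMC-2, adjusted p = 0.0309) and thrombospondin 2 (Thbs2, 6 and 0, adjusted p = 0.0240) were called higher in VLMC-1 by this exact test. Their shares in VLMC-1 were 3.34 and 4.01 times the floor of 3 transcripts in VLMC-2. These ratios leave out the counting error of VLMC-1 and are not lower bounds. At these totals, 5 transcripts against 0 were called only where VLMC-1, the cell with fewer transcripts, held the 5. Both calls of the exact test were lost with TMM-scaled totals (adjusted p = 0.0753 and 0.0564) and with no filter on low counts (0.256 and 0.198). With near-identical UMIs merged Postn was no longer called (0.0763), and Thbs2 had too few transcripts to be tested. Nid1 had 9 transcripts in each cell and Lamb1 2 and 6, without a call. The median log2 difference of the 4 was -2.73 and, with cells without a transcript set to the floor, -1.37.

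The genes whose shares over the 6 cells were most like the mean share of the members were Slc6a13 (cosine similarity 0.999), which encodes a GABA transporter, Timp3 (0.997), an inhibitor of matrix metalloproteinases, Btg2 (0.997), Vtn (0.988) and Klf6 (0.988), out of 217 genes with 20 or more transcripts. Of these, Slc6a13 and Vtn had no transcript in an oligodendrocyte, as was so of the members. Slc6a13 had 11 transcripts in VLMC-1 and 23 in VLMC-2.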

How the data were processed

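Stored single-cell cDNA made with STRT on the C1 instrument was sequenced on the PacBio platform in a short-read and a long-read run. The authors removed short molecules on a gel beforehand and enriched longer fragments before the long-read run. Per the study's methods, the authors retained reads flanked by the cell's barcode that held a run of A, used unique alignments to mm10 only, closed short gaps between aligned blocks (which hides small deletions), annotated reads with 1 RefSeq isoform per gene, that with the most exons, and collapsed those of 1 UMI into a single transcript; the methods name GMAP as the aligner and the submitters' processing notes name GSNAP 2014-10-22. The deposited table gives, for each transcript, the count of reads merged into it, and its aligned blocks, gene, UMI and cell barcode; the authors did not normalize these counts. The cell of each transcript was taken from the barcode in the sample labels.

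The members and all gene lists were chosen with earlier results of these data known. One gene of the marker lists is not reported here. Named genes were the 6 members, genes of the 4 matrix lists with 5 or more transcripts in the VLMCs, and the 5 genes most like the members' mean share over the 6 cells (cosine, genes with 20 or more transcripts). Starts and ends were joined in a chain, each position to the next within 5 bp, so that a site can span more than 5 bp. Transcripts were set against GENCODE M21 models on GRCm38 with RefSeq links, of which the one with the most exons was used. The VLMCs were compared by Fisher's exact test with Benjamini-Hochberg adjustment over all genes tested, at a threshold of 0.05; log2 differences have 0.5 added to each count. Intervals are 95% Clopper-Pearson intervals and the floor for a count of 0 is 3 transcripts. The alternatives were read support, merging of near-identical UMIs, the run, the filter, the joining distance and TMM-scaled totals (edgeR 4.0.16 in R 4.3.3, used for the scaling factors only). The statistics were tested on simulated data with known answers. Python 3.11.15 was used with numpy 2.4.6, pandas 2.3.3, scipy 1.17.1 and matplotlib 3.10.9.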

Additional observations from a re-analysis of the deposited data

How the results depend on the processing

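No paired analysis was possible because the tests compare the 2 cells of 1 group and no comparison between groups was tested, so the replicate numbers shared by the groups pair nothing. The share of the 6 genes in the VLMCs (3.02%) became 2.56% with near-identical UMIs merged and 3.67% among transcripts read in the long run, and lay between 2.74% and 3.16% with 1 of the cells left out. The 39 genes called between the cells became 5 of 2203 with no filter on low counts, 17 with a minimum of 10 transcripts, 4 among transcripts read 2 or more times, 8 with near-identical UMIs merged, 15 in the short run, 17 in the long run and 8 with UMIs merged where starts lay within 5 bp, a setting chosen after seeing the data. Fewer transcripts or more genes entered these tests by construction. With TMM-scaled totals the log2 difference of Dcn was 0.0086. The log2 difference of Col4a2, 0.37 in the report's setting, was -0.20 among transcripts read 2 or more times, -0.15 with UMIs merged, -0.11 in the short run, -0.55 in the long run and -0.16 with UMIs merged by start; the cause was not tested. The 21 end sites became 54 with no joining of neighbouring ends and 8 among transcripts that reach a first exon. The end-site test called 1 gene, Timp3, of 17 with a minimum of 10 transcripts in each cell, and the difference for Lum became -4.44 percentage points with ends within 20 bp joined, which puts the 3 shorter ends of VLMC-1 into the same site. Dcn and Lum transcripts reached the first exon in 82.7% of those read in the long run, and in 67.4% to 73.3% with 1 cell left out. For the collagens this was 0% in the long run, and 0% to 1.72% with 1 cell left out: the single such transcript is from VLMC-2. Annotated junctions were 97.3% by exact match, 99.6% within 5 bp and 99.2% among transcripts read 2 or more times. The upstream first exon of Dcn held 100% of transcripts under each alternative run for it. Depth limits what can be said of Col1a1 and Mgp, with 3 and 0 transcripts. Mgp also has the shortest mRNA of the 6 genes (617 bases), and short molecules were removed before sequencing. Its annotated length lies above the cutoff given in the study's methods, and the shortest Col1a2 transcript aligned over 78 bases. Whether the removal of short molecules bears on the count of 0 for Mgp was not tested.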

Other observations

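One UMI, GAATGA, was carried by 131 transcripts of VLMC-1 (5.60%) and 78 of VLMC-2 (1.66%), where the next most frequent UMI was carried by 6 and 11, out of 4096 possible UMIs. In the oligodendrocytes it was carried by 4 to 14 transcripts per cell. Of the transcripts of the 6 genes, 5 carried it, 2 of Dcn, 2 of Col1a2 and 1 of Col1a1. Its source was not tested.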
